A study of Ovis aries with 7 samples.

Results

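The genes described here are 8 heparan sulfate sulfotransferases measured in single nuclei of the sheep striatum: NDST3, NDST4, HS6ST2, HS6ST3, HS3ST1, HS3ST2, HS3ST4 and HS3ST5, which are 8 of the 26479 features of each count matrix. They were taken by gene symbol. The set was chosen by values measured in these data: HS3ST2, HS3ST4 and NDST4 were each selected on a high level in a different class of neurons, and HS3ST5 on its difference between genotypes in D2 medium spiny neurons (MSNs). For this reason the levels by cell class and the D2 MSN contrast are given as descriptions without a test.

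Heparan sulfate is a long sugar chain carried by core proteins of the cell surface and matrix, mainly glypicans, syndecans, agrin and perlecan. The chain is first polymerised by the EXT enzymes and then modified in the Golgi in a set order: the NDST enzymes remove acetyl groups and put sulfate on the nitrogen, GLCE and HS2ST1 epimerise and sulfate the uronic acid, the HS6ST enzymes add sulfate at carbon 6 of the glucosamine, and the HS3ST enzymes add the rare 3-O-sulfate last. The resulting pattern sets which growth factors, guidance cues and synaptic adhesion proteins bind the chain. In the nervous system heparan sulfate is known for roles in axon guidance and in the assembly of synapses.

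The nuclei came from frozen striatum of 12 sheep aged 5 years, of which 6 were OVT73 and 6 were age-matched wild-type controls. OVT73 sheep carry a full-length human HTT cDNA with an expanded CAG repeat, driven by a stretch of the human HTT upstream sequence. They serve as a model of Huntington's disease. Nuclei were pooled before droplet capture into 7 libraries, 3 OVT73 libraries of 2 sheep each, control replicates 1 and 2 of 1 sheep each, and control replicates 3 and 4 of 2 sheep each. The library was the replicate throughout, so the pooled sheep of a library were not separated.

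The libraries held 20887378 to 70473426 unique molecular identifiers (UMIs, one per captured transcript molecule). After quality filters 32599 nuclei remained, 17439 OVT73 and 15160 control, and the median nucleus held 2221 to 2562 UMIs in an OVT73 library against 1860 to 2170 in a control library. Pairs of libraries shared 2 to 20 barcode sequences. The added human HTT feature had 342, 63 and 27 UMIs in the OVT73 libraries and 1, 2, 5 and 6 in the controls. Clustering without any heparan sulfate gene placed 30296 nuclei (92.9%) in 13 classes named from fixed markers, and 2303 nuclei in 10 unnamed clusters. The names mean that a cluster carried some of the listed markers of that class (D2 MSN-like and so on). D2 MSNs carried DRD2 and PENK or ADORA2A, D1 MSNs TAC1 and EBF1, eccentric MSNs OTOF, FOXP2 and TSHZ1, parvalbumin/TH (PV/Th) interneurons PTHLH, PVALB, KIT and ANK1, and neuroblasts DCX, ADARB2, SOX4, CD24, DLX6 and DLX1. In D2 MSNs the larger cluster had raised PENK and the smaller one raised ADORA2A. Other listed markers were not among the raised ones. These were PDYN and ISL1 in D1 MSNs, GPR6 and SP9 in D2 MSNs, and CACNG5 and PCDH8 in eccentric MSNs. TH itself was not raised in the PV/Th class, and DRD1 was not analysed here.

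The 8 genes differed widely in how much RNA was seen, from 28 UMIs in the filtered nuclei for HS3ST1 to 282318 for HS6ST3. Levels are given in CPM, the UMIs of a gene per 1000000 UMIs of all genes in the same class and library, as mean ± SD over the 7 libraries with both genotypes together. Levels are compared for 1 gene across classes and not between genes. Each gene had its own set of high classes. HS3ST4 was highest in D2 MSNs and in SST/NPY interneurons, HS3ST2 in PV/Th interneurons, NDST4 in neuroblasts, NDST3 in astrocytes, HS3ST5 in microglia, and HS6ST2 and HS6ST3 in eccentric MSNs. With HS3ST1 left out for its few UMIs, the Pearson r of pairs of these genes ran from -0.35 to 0.56. It was taken over the 13 class means on the log2(CPM + 10) scale, where the points of a gene share the same 7 libraries.

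**Figure D1:**
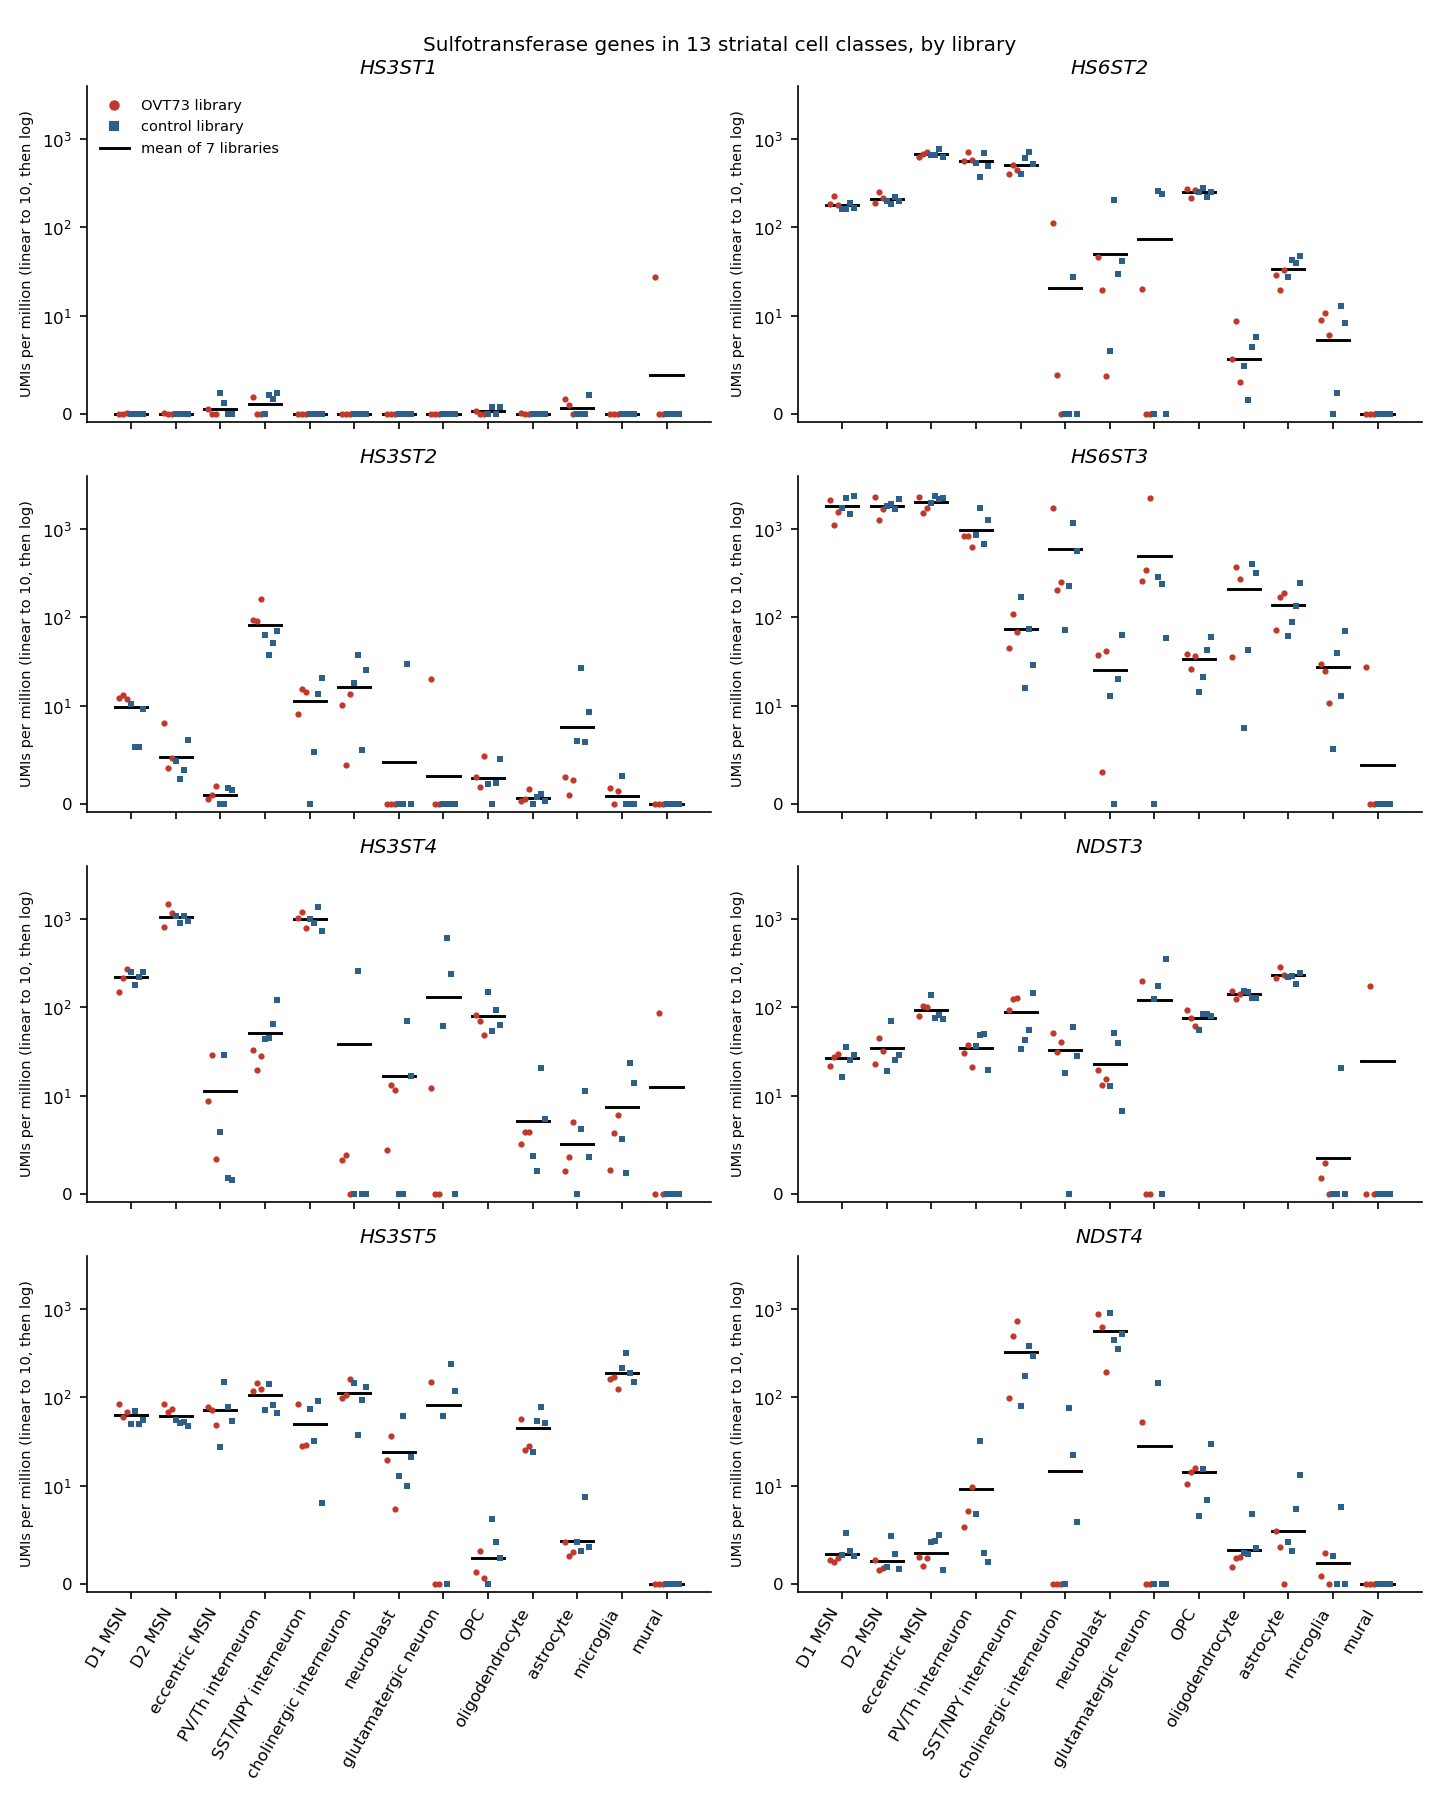
Each panel plots 1 gene, with the 13 cell classes on the horizontal axis and the level in CPM of the class on the vertical axis, which is linear up to 10 and logarithmic above. Red circles are the 3 OVT73 libraries, blue squares the 4 control libraries and black lines the means, and the highest class is a different one in most panels (D2 MSN for HS3ST4, PV/Th interneuron for HS3ST2, neuroblast for NDST4, astrocyte for NDST3, microglia for HS3ST5).

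NDST3 and NDST4 encode N-deacetylase/N-sulfotransferases, the enzymes that start the sulfation of the chain. NDST3 had its highest means in astrocytes and oligodendrocytes. Its level in astrocytes was 214, 285 and 233 CPM in OVT73 replicates 1 to 3 and 219.6, 229, 186 and 246 CPM in control replicates 1 to 4, a mean of 230.4 ± 30.4. In oligodendrocytes it was 140.0 ± 12.8 CPM, with a range of 124 to 154. All 7 libraries were higher in astrocytes than in oligodendrocytes, by 1.39 to 2.29 times, and the ranges of these classes did not overlap. Within astrocytes the level was 313 ± 75.2 CPM in a cluster led by DTHD1 and GFAP and 174 ± 29.6 in a cluster led by SLC1A2 and GLI3, with overlapping library ranges. The SLC1A2 and GLI3 cluster, at 133 to 221 CPM, overlapped the oligodendrocyte range. The next classes in order (glutamatergic neurons, eccentric MSNs, SST/NPY interneurons and OPCs) lay between 122 and 76.2 CPM and did not separate from their neighbours, whereas OPCs were above PV/Th interneurons (19.5 to 49.7 CPM) without overlap. D1 MSNs, with 26.4 ± 6.01 CPM, were 6.47 to 13.3 times below astrocytes. Microglia had the lowest mean, 3.63 CPM, from 12 UMIs in 2781 nuclei.

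The share of astrocyte nuclei with an NDST3 UMI was 40.1%, at a median depth of 2715 UMIs. In microglia the share was 0.324% at a median depth of 1413. With each nucleus thinned to 1000 UMIs the shares were 19.9% and 0.132%, and the thinning left out 114 astrocyte and 514 microglial nuclei that were shallower.

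NDST4 was concentrated in neuroblasts, the nuclei with markers of immature neurons. The neuroblast values were 879, 619 and 195 CPM in OVT73 replicates 1 to 3 and 909, 441, 349 and 522 CPM in control replicates 1 to 4, a mean of 559 ± 265. The libraries thus spanned a wide range within each genotype, and OVT73 replicate 3 was the lowest. SST/NPY interneurons, which release somatostatin and neuropeptide Y, had 322 ± 236 CPM, from as few as 8 nuclei in a library, with a range of 78.8 to 735 that overlapped that of the neuroblasts. In the other 11 classes the mean was at most 28.2 CPM. Neuroblasts were 75.1 to 364 times above D1 MSNs in each library. An NDST4 UMI was found in 32.1% of neuroblast nuclei (median 1185 UMIs) and in 5.17% of D2 MSN nuclei, which were far deeper (median 23292 UMIs). After thinning to 1000 UMIs these shares were 30.2% and 0.134%. NDST4 was itself among the leading genes of the neuroblast cluster. It was not used to build or to name that cluster, but it was selected on such a high level, so this place follows from the choice.

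HS6ST2 and HS6ST3 add the 6-O-sulfate that many growth factor receptors need to bind the chain. HS6ST2 was high in eccentric MSNs, a small MSN population outside the D1 and D2 types, and in interneurons. The eccentric MSN values were 628, 680.4 and 716 CPM in OVT73 replicates 1 to 3 and 668, 657, 774 and 621 CPM in control replicates 1 to 4, a mean of 678 ± 53.3. PV/Th interneurons had 565 ± 115 CPM and SST/NPY interneurons 515 ± 115 CPM, and these 3 classes overlapped. All of them were above OPCs (249.9 ± 24.3 CPM), D2 MSNs (209 ± 23.4) and D1 MSNs (181 ± 22.4), and the SST/NPY interneurons and the OPCs did not overlap. Eccentric MSNs were 3.02 to 4.11 times above D1 MSNs in each library. Cholinergic interneurons, with 20.6 CPM, stood apart from the other interneurons, but only 56 nuclei were found and 4 of the 7 libraries had no HS6ST2 UMI in them. Oligodendrocytes had 5.62 ± 2.75 CPM.

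The share of eccentric MSN nuclei with an HS6ST2 UMI was 97.8% (median 19288 UMIs) against 1.15% of oligodendrocyte nuclei (median 1769 UMIs). After thinning these were 47.9% and 0.658%. HS6ST2 in OPCs was found in 44.3% of nuclei, with 18.7% after thinning, and the thinned share in D2 MSNs was also 18.7%.

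HS6ST3 was high in all 3 MSN classes. Its mean was 2048 ± 309 CPM in eccentric MSNs, 1844 ± 345 in D2 MSNs and 1823 ± 468 in D1 MSNs, and the ranges overlapped. In D1 MSNs the values were 2149, 1116 and 1579 CPM in OVT73 replicates 1 to 3 and 1752, 2274, 1492 and 2399 CPM in control replicates 1 to 4. PV/Th interneurons had 976 ± 387 CPM and lay below D1 MSNs in 7 of 7 libraries, by 1.32 to 2.60 times, while SST/NPY interneurons had 72.9 ± 52.5 CPM. HS6ST2 and HS6ST3 therefore split the SST/NPY interneurons, where the first was near its highest level and the second was not. An unnamed cluster of 49 nuclei with MSN markers, led by NPSR1 and COL24A1, had 1198 to 2885 CPM of HS6ST3 and listed it among its leading genes.

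In oligodendrocytes HS6ST3 did not follow the genotype, and the libraries formed separate sets. The level was 35.7, 374 and 272 CPM in OVT73 replicates 1 to 3 and 7.71, 42.4, 401 and 320.2 CPM in control replicates 1 to 4. OVT73 replicate 1 and control replicates 1 and 2 were thus at or below 42.4 CPM and the other 4 libraries at or above 272 CPM, with nothing between. The same 3 libraries were the lowest in each of the 4 oligodendrocyte clusters, where the low libraries ranged from 1.65 to 54.8 CPM and the high ones from 136 to 469 CPM. The summed level of 7 MSN markers in these oligodendrocytes, a measure of MSN transcripts present there, was 371, 355 and 355 CPM in the OVT73 libraries and 395, 485, 291 and 282 CPM in the controls, with none of the 7 at 0. The 3 libraries with little HS6ST3 had the 3 highest of these sums. In astrocytes HS6ST3 was 71.0, 169 and 191 CPM in OVT73 replicates 1 to 3 and 61.8, 89.7, 133 and 242 CPM in control replicates 1 to 4, with the same 3 libraries lowest but a narrower gap. In D1 MSNs the same 3 libraries were among the 4 highest for HS6ST3. Control replicates 1 and 2 are the libraries of 1 sheep, and OVT73 replicate 1 is a library of 2 sheep with the most nuclei. The part of the number of sheep, of the number of nuclei and of MSN transcripts in the split was not tested.

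**Figure D2:**
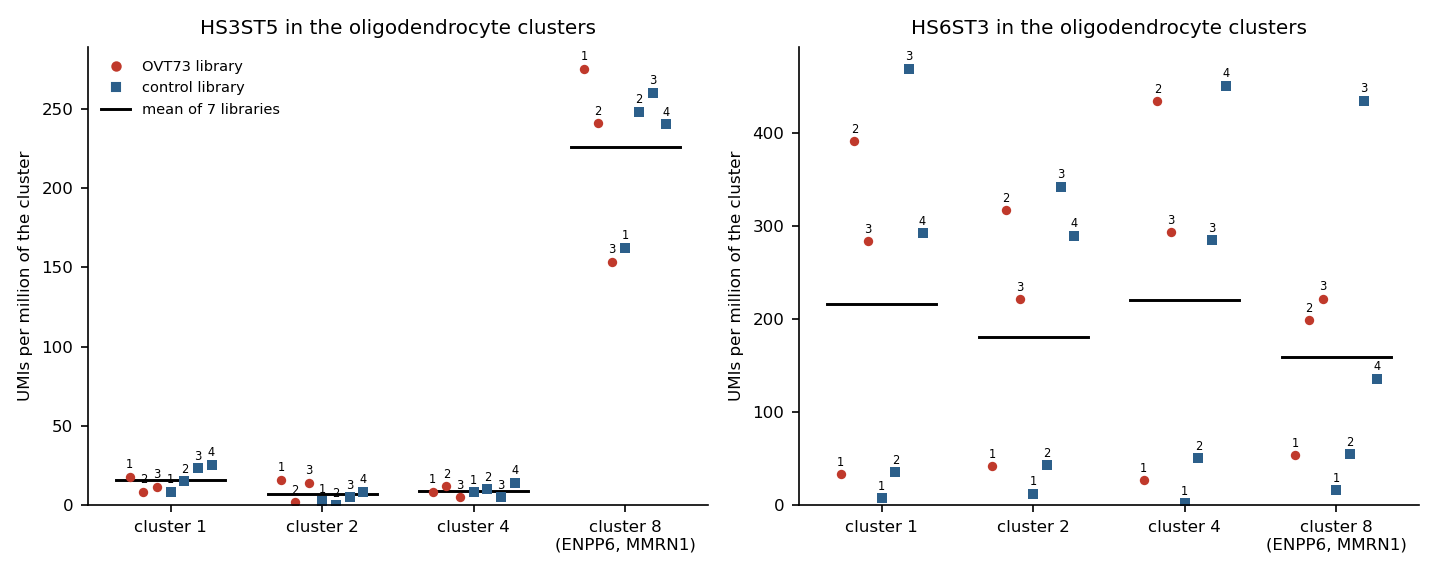
Levels in CPM of the cluster are plotted for HS3ST5 (left) and HS6ST3 (right) in the 4 oligodendrocyte clusters, with red circles for OVT73 libraries, blue squares for control libraries, numbers for replicates and black lines for the means of 7 libraries. HS3ST5 is high in cluster 8 in all 7 libraries, while HS6ST3 is low in OVT73 replicate 1 and control replicates 1 and 2 in each cluster.

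HS3ST1, HS3ST2, HS3ST4 and HS3ST5 encode 3-O-sulfotransferases. HS3ST1 is known for making an antithrombin-binding form of the chain, not necessarily as the only enzyme to do so. HS3ST1 was close to undetected in the striatum. It had 33 UMIs in all barcodes and at most 7 in any named class, and no UMI in 5 classes, among them 2781 microglia, which allows a share of up to 0.108% of nuclei with a UMI, and 1321 neuroblasts, which allows up to 0.227%. These limits cover counting error only, and at median depths of 1413 and 1185 UMIs they do not limit the share of nuclei that express the gene. It passed the filter on low counts in no class, and no order of classes can be read from it.

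HS3ST2 was highest in PV/Th interneurons, the fast-spiking interneurons of the striatum. The values were 93.9, 92.0 and 162 CPM in OVT73 replicates 1 to 3 and 63.9, 37.7, 51.3 and 69.3 CPM in control replicates 1 to 4, a mean of 81.5 ± 41.0. The next class, cholinergic interneurons, had 16.3 ± 11.8 CPM from 18 UMIs and did not overlap. The classes from cholinergic interneurons down to oligodendrocytes (0.616 CPM) formed a series in which no class separated from its neighbour. D1 MSNs had 9.87 ± 2.99 CPM and were below PV/Th interneurons by 6.09 to 13.5 times, and D2 MSNs had 4.78 ± 1.96 CPM. An HS3ST2 UMI was seen in 38.1% of PV/Th nuclei (median 14720.5 UMIs) and in 1.89% of eccentric MSN nuclei (median 19288 UMIs). After thinning the shares were 6.60% and 0.315%.

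HS3ST4 had its highest class mean in D2 MSNs, the neurons of the indirect pathway. The values were 807, 1475 and 1158 CPM in OVT73 replicates 1 to 3 and 1074, 902, 1075 and 961 CPM in control replicates 1 to 4, a mean of 1065 ± 216. SST/NPY interneurons reached 1006 ± 228 CPM and overlapped D2 MSNs. D1 MSNs, the neurons of the direct pathway, had 221 ± 44.1 CPM. D2 MSNs were above D1 MSNs by 3.78 to 6.84 times in 7 of 7 libraries, and above eccentric MSNs (11.4 ± 12.2 CPM) by 31.6 to 666 times. The 3 MSN classes thus differed from each other in this gene more than D2 MSNs differed from SST/NPY interneurons. Both D2 clusters carried it, at 1035 ± 226 CPM in the larger and 1314 ± 235 CPM in the smaller. OPCs had 80.2 ± 34.5 CPM and astrocytes 5.03 ± 3.75.

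The share of nuclei with an HS3ST4 UMI was 98.2% in D2 MSNs (median 23292 UMIs), 66.1% in D1 MSNs (median 22304 UMIs), 5.99% in eccentric MSNs and 1.22% in oligodendrocytes. After thinning it was 57.6%, 16.3%, 0.631% and 0.695%. HS3ST4 led the genes of the larger D2 cluster. No heparan sulfate gene entered the clustering, but HS3ST4 was selected on its high level in a neuron class, so this place follows from the choice.

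HS3ST5 was the only one of the 8 genes with its highest class mean in microglia. The microglial values were 161, 168 and 125 CPM in OVT73 replicates 1 to 3 and 217, 317, 189 and 149 CPM in control replicates 1 to 4, a mean of 189 ± 63.4. Cholinergic interneurons (111 ± 41.2 CPM) and PV/Th interneurons (66.1 to 147 CPM) followed, and their ranges overlapped with microglia. Eccentric, D1 and D2 MSNs had 71.8, 62.5 and 61.7 CPM and did not separate. Astrocytes and OPCs had 4.36 and 2.67 CPM, so that microglia were 21.4 to 95.4 times above astrocytes. A UMI was seen in 18.9% of microglial nuclei (median 1413 UMIs) against 0.895% of OPC nuclei, which were deeper (median 3637 UMIs), and the thinned shares were 14.2% and 0.336%. The summed level of 5 PV/Th interneuron markers in microglia was 28.2 to 52.5 CPM in OVT73 and 35.4 to 106 CPM in control libraries, with TH at 0.

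Within oligodendrocytes HS3ST5 lay mostly in 1 cluster, led by ENPP6 and MMRN1. ENPP6 is known as a marker of newly formed oligodendrocytes, but it was also among the leading genes of an OPC cluster of 112 nuclei. CCDC152 and GHR, also leading genes here, led the largest oligodendrocyte cluster too. The stage of these nuclei is therefore not read from ENPP6. The ENPP6 and MMRN1 cluster held 5.94 to 18.6% of the oligodendrocyte nuclei of a library. Its level was 275, 241 and 154 CPM in OVT73 replicates 1 to 3 and 163, 248, 260.3 and 241 CPM in control replicates 1 to 4. The mean of this cluster, 226 ± 48.0 CPM, was above the microglial class mean of 189, with overlapping library ranges. The other 3 oligodendrocyte clusters had means of 15.7, 6.81 and 8.92 CPM and the highest of their library values was 25.5 CPM. The D2 MSN clusters differed too, with 48.9 to 89.5 CPM in the larger cluster and 20.5 to 37.0 CPM in the smaller one, where a library had as few as 17 nuclei.

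For each of the 8 genes the features with the most similar order of classes were ranked by Pearson r of log2(CPM + 10) over the 13 class means, among 7158 genes with at least 50 CPM in some class. HS3ST2 was closest to an unnamed gene (ENSOARG00020025417, r = 0.91), to NKX2-1 (0.90), a transcription factor of ventral forebrain interneurons, and to PTHLH (0.89), a PV/Th marker. HS3ST4 was closest to ENSOARG00020005799 (0.90), ENSOARG00020005692 (0.86) and PTPRT (0.85), all of which had their highest mean in SST/NPY interneurons. HS3ST5 went with XPO6 (0.93), QRICH1 (0.87) and TBC1D15 (0.85). NDST4 went with PGM2L1 (0.87), TOX3 (0.85) and GRIP2 (0.83), and NDST3 with ENSOARG00020003897 (0.83), PHYHIPL (0.82) and FERMT2 (0.82). HS6ST2 was closest to PPP4R4 (0.91), TENM1 (0.90) and KIAA1549L (0.90), and HS6ST3 to WDPCP (0.91), SCRN1 (0.91) and RBFOX1 (0.90). HS3ST1 was too low for such a ranking. These values describe 13 points that share libraries.

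The rest of the pathway was read from a list of 57 heparan sulfate genes, of which 55 were in the files and 47 are not among the 8. HS2ST1, the only 2-O-sulfotransferase, was present in every class. Its means lay between 119.7 CPM in eccentric MSNs and 362 CPM in neuroblasts, apart from glutamatergic neurons. The mean there was 507 CPM, from as few as 3 nuclei and 3961 UMIs of all genes in a library. The glypican core proteins were more selective. GPC5 reached 12834 CPM in astrocytes, 10488 in microglia and 8786 in OPCs but 48.8 CPM in D1 MSNs, and GPC6 was highest in PV/Th interneurons (5223 CPM). EXT1, a subunit of the chain polymerase, had its highest means in astrocytes (828 CPM) and microglia (772 CPM). The summed level of 8 astrocyte markers in microglia was 326 to 554 CPM, which can be read beside GPC5. Microglia thus carried GPC5, EXT1 and the highest class mean of HS3ST5, while the N-sulfation genes NDST1, NDST3 and NDST4 were low there. NDST1, the broadly used member of that family, had 2.91 ± 2.43 CPM in microglia, the lowest of the 13 classes, against 77.4 in oligodendrocytes and 35.8 in D1 MSNs. NDST3 and NDST4 had 3.63 and 2.06 CPM in microglia. NDST2 had a different order, since its 1.96 CPM in microglia was its highest mean of the 13 classes. It was low in every class. HPSE, the heparanase that cleaves the chain outside the cell, was highest in microglia with 34.2 ± 34.0 CPM.

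**Figure D3:**
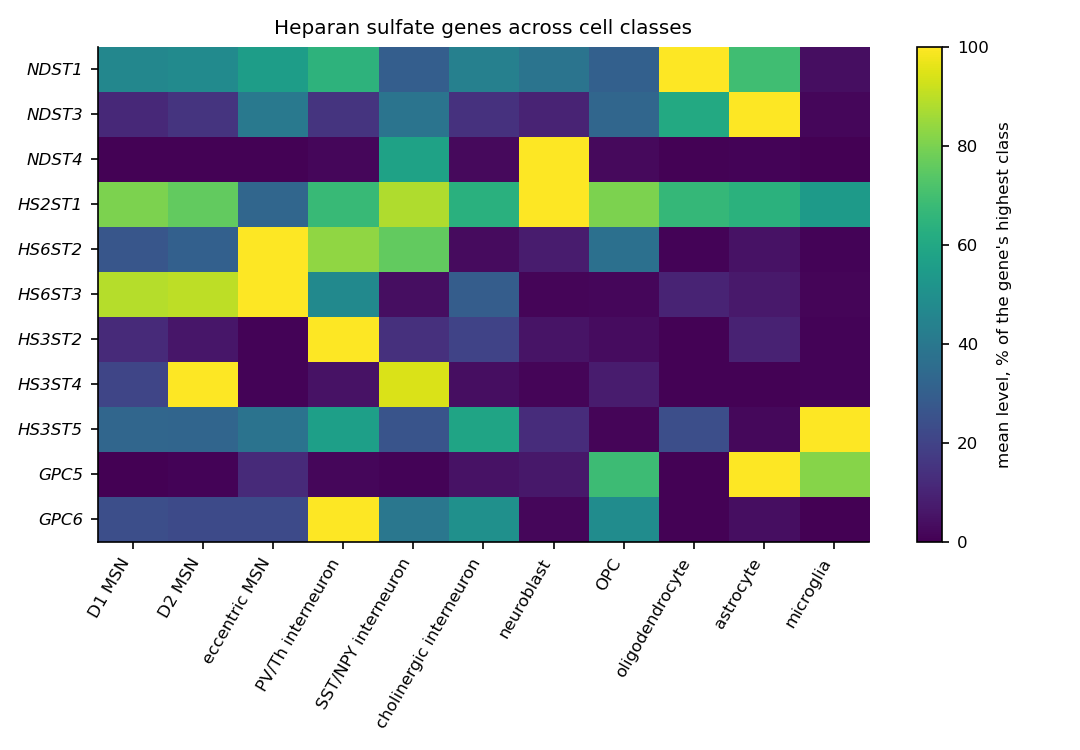
The mean level of each gene in 11 classes (columns) is drawn as a percentage of that gene's highest class among them, from dark (0) to yellow (100), with glutamatergic neurons and mural cells left out because of few nuclei. HS2ST1 is bright across most columns, NDST4, HS3ST2 and HS3ST4 are bright in 1 or 2 columns, and NDST1, NDST3 and NDST4 are all dark in microglia. NDST2 is not drawn.

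OVT73 and control libraries were compared in the 9 classes with at least 10 nuclei in every library. UMIs were summed per class and library and tested across all genes with edgeR's quasi-likelihood test. The values below are CPM scaled by the TMM factors of that fit, and each log2 fold change (OVT73 against control) stands with a standard error. That error was derived from the test, as the size of the log2 fold change over the square root of its F statistic. Of the 8 genes, 7 passed the filter on low counts in D1 and in D2 MSNs, 6 in PV/Th interneurons and oligodendrocytes, 5 in OPCs, 4 in eccentric MSNs, 3 in astrocytes, and 2 in neuroblasts and microglia, 42 gene and class pairs in all. HS3ST1 passed in none. In sums over a class, fewer nuclei of a subtype and less RNA per nucleus cannot be told apart.

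No pair was called at an adjusted p of 0.05 by edgeR. Over the whole table edgeR called 0% of genes in D1 MSNs, D2 MSNs, PV/Th interneurons, neuroblasts, OPCs, oligodendrocytes, astrocytes and microglia, and 0.0135% in eccentric MSNs (1 of 7394). The number of genes at an unadjusted p under 0.05 was 493, 535, 309, 194, 586, 547, 374 and 278 in the first 8 of these classes, in that order, and 539 in eccentric MSNs, which is 4.00% (D1 MSNs) to 7.29% (eccentric MSNs) of the genes tested in a class. DESeq2 called 3, 7, 9, 0, 7, 5, 0 and 0 genes in the same 8 classes and 1 in eccentric MSNs, and none of the 35 pairs outside D2 MSNs. Outside D2 MSNs 7 of the 35 pairs (20%) had an unadjusted edgeR p under 0.05, with classes of the same libraries among them. The lowest edgeR adjusted p was 0.75. The 35 pairs include those of HS3ST5, a gene chosen on its D2 MSN contrast in these same libraries. The share is therefore not free of that choice and is not read as an enrichment. An exact permutation test over the 35 ways of choosing 3 of 7 libraries, two-sided, cannot go below 0.0286, and 2 pairs reached that value. After Benjamini-Hochberg adjustment over the 35 pairs the smallest exact permutation p was 0.50. With that floor an adjusted value under 0.05 would need many of the 35 pairs to reach it, so the adjusted value decides nothing.

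A second reading is whether all OVT73 libraries lay on 1 side of all control libraries. In D1 MSNs this held for 3 of the 7 genes tested, against 5.29% of all genes. In D2 MSNs it held for 1 of 7, against 5.91% of all genes, a contrast that the choice of HS3ST5 used. In PV/Th interneurons it held for 2 of 6 (5.12% of all genes) and in oligodendrocytes for 1 of 6 (6.65%). It held for none of the genes tested in eccentric MSNs (7.6% of all genes), neuroblasts (5.82%), OPCs (7.3%), astrocytes (5.57%) or microglia (5.54%). Over all classes but D2 MSNs, 3 pairs were higher and 3 lower in OVT73. Without scaling factors the median of all genes shifted from -0.03 to -0.13 in D1 and in D2 MSNs and from -0.02 to -0.11 in OPCs. The split of non-overlapping genes above and below went from 370 and 282 to 125 and 527 in D1 MSNs, and from 378 and 323 to 98 and 690 in D2 MSNs, so directions are relative to the scaling used.

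**Figure D4:**
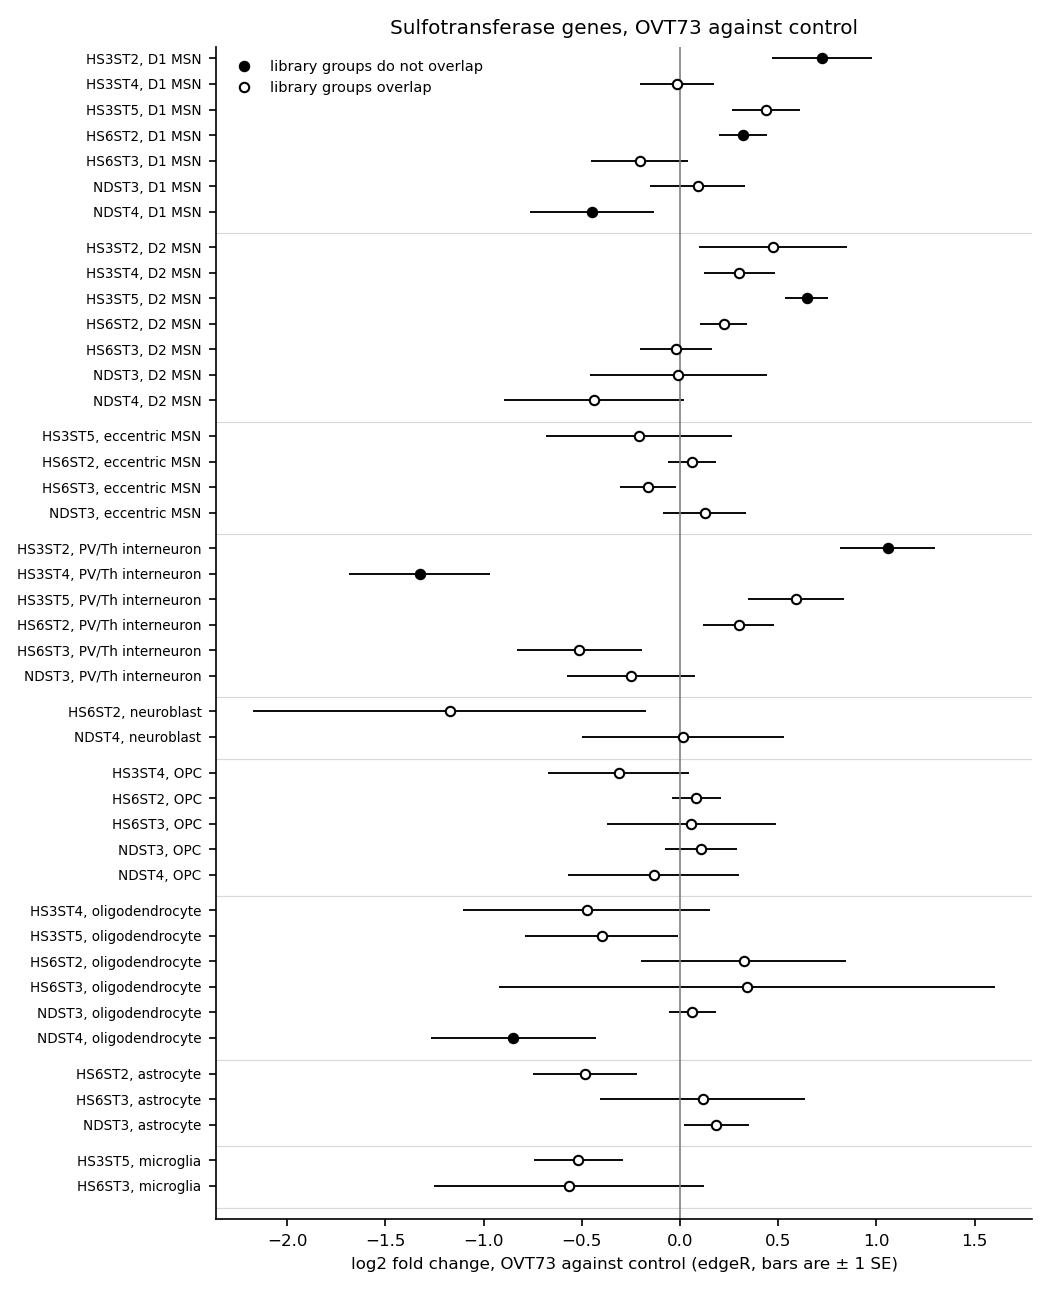
Log2 fold changes of OVT73 against control from edgeR are plotted for the 42 gene and class pairs, with bars of 1 standard error. Filled points mark the 7 pairs whose library groups do not overlap, and the 2 points farthest from 0 among these are HS3ST2 (1.06) and HS3ST4 (-1.32) in PV/Th interneurons.

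In PV/Th interneurons, the class where its level was highest, HS3ST2 was 96.6, 101 and 168 in OVT73 replicates 1 to 3 and 63.5, 39.6, 51.2 and 71.1 in control replicates 1 to 4. All OVT73 libraries were above all controls, with a log2 fold change of 1.06 ± 0.24 (edgeR adjusted p = 0.75, exact permutation p = 0.0286). Marker sums moved with it in this class. The summed level of 5 general interneuron markers was 5099 to 5950 CPM in OVT73 and 4095 to 4729 in control, without overlap, and that of 5 PV/Th markers was 812 to 987 and 620.4 to 829.7, with overlap and none at 0. Their part in the difference was not tested. Without a filter on low counts the edgeR adjusted p was 0.000239, a setting that called 39 of 18260 genes in this class against 0 of 7595 with the filter. With a coarser clustering the class held 654 nuclei, 260 of them from an unnamed cluster, and the log2 fold change was 0.49.

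HS3ST4 in the same interneurons went the other way, with 34.0, 21.6 and 29.2 in OVT73 replicates 1 to 3 and 43.7, 47.6, 65.1 and 123 in control replicates 1 to 4. All OVT73 libraries were below all controls, and control replicate 4 was well above the rest. The log2 fold change was -1.32 ± 0.36 (edgeR adjusted p = 0.998, exact permutation p = 0.0857). It was -0.87 without control replicate 4 and -0.47 with the coarser clustering. The coarser class took in 260 nuclei of an unnamed cluster with a mean of 1191 CPM of HS3ST4, against 50.8 CPM in PV/Th interneurons. The value of -0.47 is therefore not a check on the same nuclei. Without a filter on low counts the edgeR adjusted p of HS3ST4 was 0.000950, in the same setting that called 39 of 18260 genes in this class. Control replicate 4 also had the highest summed level of 7 MSN markers in this class, 1828 CPM against 866 to 1074 in the other libraries. The summed D2 markers were 42.4 to 67.8 CPM in OVT73 and 43.4 to 74.7 in control, and the summed SST/NPY markers 32.9 to 104 and 33.9 to 288. The summed level of 8 astrocyte markers was 318 to 449 CPM in OVT73 and 402 to 795 in control, again with control replicate 4 highest, and the general interneuron markers were those given above. The part of these other classes' transcripts in the difference was not tested. At the low level seen here, HS3ST4 was found in 12.2% of PV/Th nuclei.

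HS3ST5 was selected on its D2 MSN values, so these are a description. In D2 MSNs it was 87.9, 73.2 and 74.2 in OVT73 replicates 1 to 3 and 53.4, 51.2, 48.4 and 48.1 in control replicates 1 to 4, with no overlap and a log2 fold change of 0.64 ± 0.11. In unscaled CPM, the larger D2 cluster had 70.8 to 89.5 in OVT73 and 48.9 to 57.8 in control libraries. The genotypes overlapped in the smaller D2 cluster, at 26.2 to 35.6 and 20.5 to 37.0. In D1 MSNs HS3ST5 was 89.4, 64.2 and 68.6 against 47.9, 70.2, 46.2 and 55.3, where control replicate 2 lay among the OVT73 libraries (log2 fold change 0.44 ± 0.17, edgeR adjusted p = 0.945, exact permutation p = 0.114). Without OVT73 replicate 1 this was 0.27. In PV/Th interneurons it was 121, 161 and 127 against 72.0, 149, 82.2 and 67.7, again with control replicate 2 among the OVT73 libraries (0.59 ± 0.25, edgeR adjusted p = 0.998, exact permutation p = 0.114), and the value was 0.89 without that library. The direction was the opposite in microglia, the class with its highest mean, where it was 166, 183 and 129.7 against 221, 333, 196 and 158. The microglial groups overlapped, the log2 fold change was -0.52 ± 0.23 (edgeR adjusted p = 0.999, exact permutation p = 0.229), and it was -0.26 without control replicate 2 and -0.12 with the libraries of 2 sheep alone.

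Whether a gene's genotype difference itself differed between classes was tested for 80 combinations of a gene and 2 classes outside D2 MSNs, by exact permutation of the genotype labels. The HS3ST5 difference between PV/Th interneurons and microglia was among the 2 that reached the smallest possible exact permutation p of 0.0286. The smallest value after adjustment over the 80 was 0.98. With that floor a low adjusted value would need many of the 80 to reach it. HS3ST5 was also chosen on its D2 MSN contrast in these libraries, so nothing is read from this test.

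**Figure D5:**
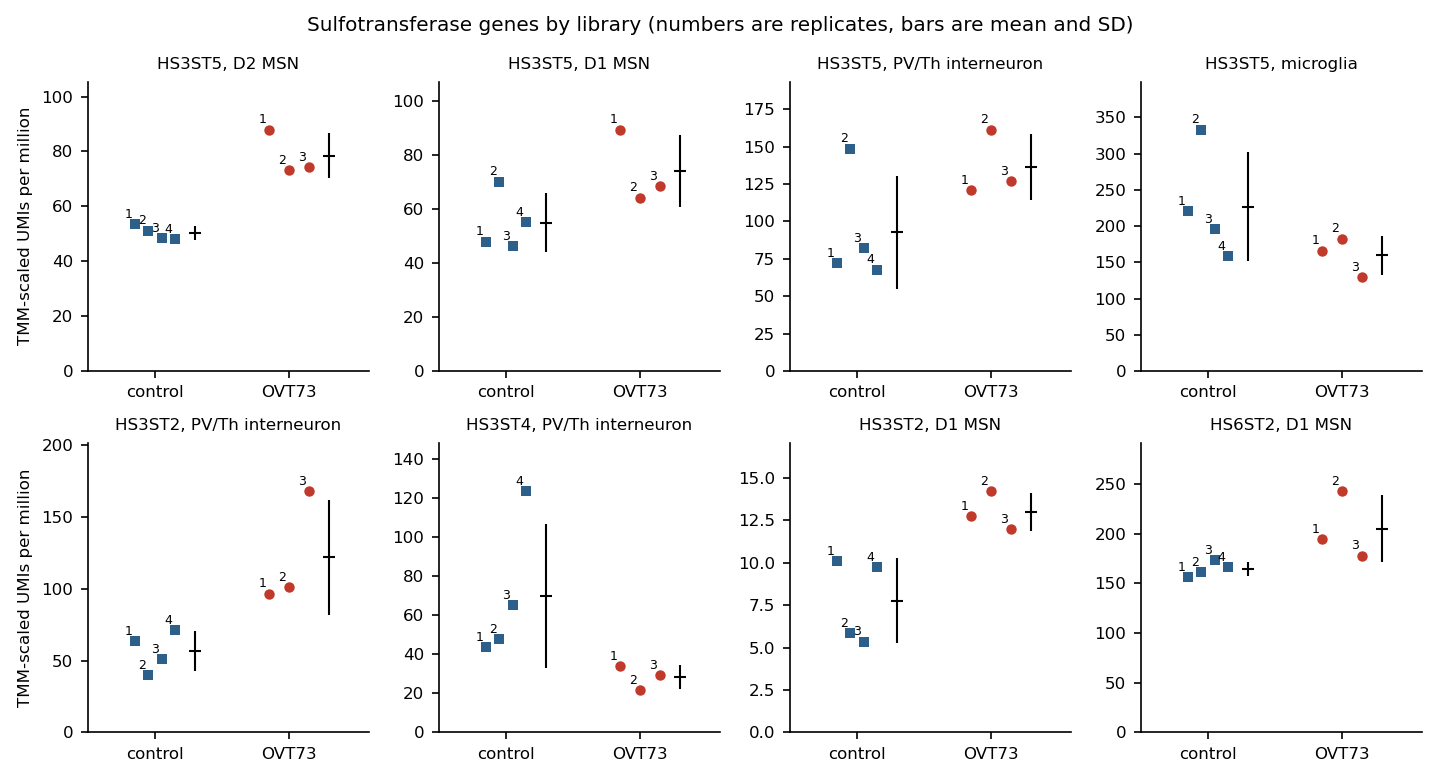
TMM-scaled CPM values are plotted for 8 gene and class pairs, with control libraries as blue squares, OVT73 libraries as red circles, replicate numbers beside the points, and bars for the mean and SD of each group. The groups are apart for HS3ST5 in D2 MSNs, HS3ST2 and HS3ST4 in PV/Th interneurons, and HS3ST2 and HS6ST2 in D1 MSNs, and overlap in the other panels.

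In D1 MSNs the non-overlapping genes were HS3ST2, HS6ST2 and NDST4. HS3ST2 was 12.8, 14.2 and 11.97 in OVT73 replicates 1 to 3 and 10.1, 5.87, 5.35 and 9.73 in control replicates 1 to 4 (log2 fold change 0.72 ± 0.25, edgeR adjusted p = 0.945, exact permutation p = 0.0571). HS6ST2 was 195, 243 and 178 against 157, 161, 174 and 166 (0.32 ± 0.12, edgeR adjusted p = 0.945, exact permutation p = 0.0286), and the value was 0.18 without OVT73 replicate 2. NDST4 was barely present, with 2.54, 2.41 and 2.59 against 2.81, 5.24, 3.08 and 2.84 (-0.45 ± 0.32, edgeR adjusted p = 0.945, exact permutation p = 0.114), and the value was -0.22 without control replicate 2. HS3ST4 and HS6ST3, the sulfotransferases with the most UMIs in MSNs, overlapped between genotypes in D1 MSNs, with log2 fold changes of -0.02 ± 0.19 and -0.21 ± 0.25.

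The other values in D2 MSNs were smaller than that of HS3ST5 or rested on few libraries. HS3ST4 had its highest class mean in D2 MSNs, with SST/NPY interneurons overlapping. In D2 MSNs it was 843, 1593 and 1172 in OVT73 replicates 1 to 3 and 1042, 897, 995 and 965 in control replicates 1 to 4. The OVT73 libraries lay on both sides of the controls, with a log2 fold change of 0.30 ± 0.18 that was 0.05 without OVT73 replicate 2. HS6ST2 had 0.22 ± 0.12, which was 0.08 without OVT73 replicate 2, HS3ST2 0.47 ± 0.38, HS6ST3 -0.02 ± 0.18, NDST3 -0.01 ± 0.45 and NDST4 -0.44 ± 0.46.

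In the classes where NDST3, NDST4 and the HS6ST genes were highest, the genotypes overlapped. NDST3 in astrocytes had a log2 fold change of 0.18 ± 0.17 and in oligodendrocytes of 0.06 ± 0.12. NDST4 in neuroblasts was 975.1, 692 and 213 in OVT73 replicates 1 to 3 and 1001, 535, 374 and 572 in control replicates 1 to 4, with a log2 fold change of 0.02 ± 0.51. HS6ST2 and HS6ST3 in eccentric MSNs had 0.06 ± 0.12 and -0.16 ± 0.14. HS6ST3 in oligodendrocytes had the widest standard error of the 42 pairs, 0.34 ± 1.26, with the library sets described above. The remaining non-overlapping pair was NDST4 in oligodendrocytes, at 1.68, 2.85 and 2.7004 against 3.14, 3.05, 6.62 and 3.60 (-0.85 ± 0.42, edgeR adjusted p = 0.882, exact permutation p = 0.114). That level corresponds to 98 UMIs in 15097 nuclei, and the value was -0.51 without control replicate 3.

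The 47 other genes of the pathway gave 223 gene and class pairs, of which edgeR called 0, with 10 at an unadjusted p under 0.05. Library groups did not overlap for 15 of them (6.73%), 10 higher and 5 lower in OVT73, close to the 6.09% of all genes over the same classes. By class these were 5 of 35 genes tested in D2 MSNs, 3 of 26 in OPCs, 3 of 32 in oligodendrocytes, 2 of 25 in astrocytes, 1 of 38 in D1 MSNs and 1 of 21 in eccentric MSNs, with none in PV/Th interneurons (22 tested), neuroblasts (9) or microglia (15). The median log2 fold change of these genes was -0.07 in D1 MSNs, -0.04 in D2 MSNs and 0.02 in OPCs, beside -0.03, -0.03 and -0.02 for all genes.

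HPSE2, a heparanase relative without known cleaving activity, was non-overlapping in 3 classes. Its log2 fold change was 1.02 ± 0.51 in D1 MSNs, 1.05 ± 0.56 in D2 MSNs and 1.12 ± 0.34 in OPCs. In each of these classes control replicate 1 was the lowest library, with 4.22, 3.20 and 3.38 TMM-scaled CPM. Without it the values were 0.66, 0.68 and 0.85, and the edgeR adjusted p with all libraries was 0.945, 0.906 and 0.733. In OPCs XYLT1, which starts the linkage region on the core protein, had 0.41 ± 0.12. The glypicans GPC6 and GPC4 in astrocytes had 0.66 ± 0.15 and 0.91 ± 0.47. In oligodendrocytes HS3ST3A1, another 3-O-sulfotransferase, was 12.99, 17.7 and 14.1 in OVT73 replicates 1 to 3 and 9.43, 9.62, 8.51 and 6.64 in control replicates 1 to 4 (0.79 ± 0.22), and EXTL3 had 0.42 ± 0.13. On the lower side, IDS, a lysosomal sulfatase, had -0.39 ± 0.22 in eccentric MSNs, and NAGLU, another lysosomal enzyme of heparan sulfate breakdown, -0.74 ± 0.39 in D2 MSNs, at 0.832 to 1.93 TMM-scaled CPM. None of these passed the edgeR threshold of 0.05.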

How the data were processed

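The deposited data were raw counts, UMIs per gene and barcode in the filtered matrices of 7 libraries, made by the authors with Cell Ranger 7.0.0 and STAR 2.7.2a on Oar_rambouillet_v1.0 with Ensembl release 107, per the labels and the study's methods. The study's mapping summary lists more reads on the transcriptome than on exons, and antisense reads apart, so intronic reads were counted and strand was used. Genes that overlap on the same strand cannot be told apart. The study's assignment of nuclei to sheep was not used.

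Nuclei with 200 to 7500 genes and at most 5% mitochondrial UMIs were kept (33957 of 35272 barcodes). The 4% with the highest doublet scores in each library were removed (1358), since the automatic threshold marked 129. Nuclei were clustered with scanpy 1.11.5 and igraph 0.11.9 (3000 variable genes without heparan sulfate genes, 30 components, 20 neighbours, resolution 1). The components were first corrected for library by a Harmony procedure, and each library holds 1 genotype. Clusters were named from at least 3 markers of a broad class, and MSN and interneuron subclasses from at least 2 of their own. The limit of 2 and the rule against a close second class were set after marker profiles were seen, before genotypes were compared. Class sums per library were tested with edgeR 4.0.16 (filterByExpr, TMM, robust quasi-likelihood, Benjamini-Hochberg over all genes) in R 4.3.3, tested first on simulated data. DESeq2 1.42.0, no filter, other scaling, coarser clusters (resolution 0.5), equal nuclei, libraries of 2 sheep and leaving out each library were alternatives. Thinning drew 1000 UMIs per nucleus.

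Replicates were numbered in accession order. The 8 genes, the pathway lists and the markers were chosen with earlier results of these data known. Named are the 8 genes, and of the other listed genes at most 2 non-overlapping ones per class by fold change, those with the highest levels where 1 of the 8 was highest, and the 3 most similar genes by class. Libraries mix 1 or 2 sheep, so p-values measure the spread between libraries. No sequences or coordinates are given, since the reference used here was of another assembly.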

Additional observations from a re-analysis of the deposited data

Results flagged for a closer look

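In 42 control groups of 4 libraries, 4 held a library whose gap to the nearest other exceeded Dixon's 95% limit for its share of the group's range. Chance gives about 1 such group in 20. NDST4 in D1 MSNs was 5.24 TMM-scaled CPM in control replicate 2 against 2.81 to 3.08 in the other controls. NDST3 in eccentric MSNs was 138 in control replicate 1 against 74.5 to 80.3. HS6ST2 in neuroblasts was 249 in control replicate 2, which had 45 neuroblast nuclei, against 7.05 to 46.1. NDST4 in oligodendrocytes was 6.62 in control replicate 3 against 3.05 to 3.60.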

How the results depend on the processing

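No paired analysis was run, since the OVT73 and control libraries came from different sheep and the labels link no OVT73 library to a control library. Counts of all genes called changed with the tool and the filter. DESeq2 called 3 genes in D1 MSNs, 7 in D2 MSNs, 9 in PV/Th interneurons, 7 in OPCs and 5 in oligodendrocytes, where edgeR called 0. With no filter on low counts edgeR called 1 gene in D2 MSNs, 48 in eccentric MSNs, 39 in PV/Th interneurons, 7 in neuroblasts, 35 in OPCs, 1 in oligodendrocytes, 17 in astrocytes and 34 in microglia. With the libraries of 2 sheep alone it called 8 in eccentric MSNs, 3 in PV/Th interneurons and 1 in OPCs, and with coarser clusters 1 in OPCs. In eccentric MSNs, where the count was 1, it was 0 without scaling factors and 0 with equal nuclei. Leaving out 1 library at a time gave 0 to 1 in eccentric MSNs, in oligodendrocytes and in microglia.

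Of the 8 genes, 2 pairs were called with no filter, HS3ST2 (log2 fold change 1.10, edgeR adjusted p = 0.000239) and HS3ST4 (-1.27, edgeR adjusted p = 0.000950) in PV/Th interneurons. In that class edgeR called 39 of 18260 genes without the filter and 0 of 7595 with it. DESeq2 called 0 of the 35 pairs outside D2 MSNs. In D2 MSNs, whose contrast chose the genes, DESeq2 listed 1, from which nothing is read. The non-overlapping pairs were 7 of 42 in the main setting (16.7%, beside 6.09% of all genes). They were 15 of 44 with the libraries of 2 sheep alone (34.1%, beside 28.1% of all genes). With coarser clusters they were 4 of 44 (9.09%, beside 5.83%), and with equal nuclei 4 of 38 (10.5%, beside 6.06%). Each of these counts holds HS3ST5 in D2 MSNs, the contrast that chose the gene, so nothing is read from the shares. For the 12 pairs whose alternatives were recorded singly, no direction turned in the 179 values that could be computed. NDST4 in oligodendrocytes had 14 alternatives and the others 15. These 12 include the 7 non-overlapping pairs, HS3ST5 in D2 MSNs among them. Steady directions were thus in part set by which pairs were recorded, and nothing is read from them. Of all 42 pairs, 19 changed sign in at least 1 alternative. Shares of nuclei with a UMI fell on thinning to 1000 UMIs, to 6.60% for HS3ST2 in PV/Th interneurons, 57.6% for HS3ST4 in D2 MSNs, 14.2% for HS3ST5 in microglia, 47.9% for HS6ST2 and 70.3% for HS6ST3 in eccentric MSNs, and 19.9% for NDST3 in astrocytes, by construction. The cause of the other shifts was not tested. Low counts limit what can be read of HS3ST1 in every class, and of NDST4 and HS3ST2 in the shallower classes outside their high ones. D1 and D2 MSNs were not shallow, with at least 4800916 and 4297329 UMIs in a library. HS3ST1 had 0.0177 and 0.00712 CPM in these 2 classes.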

Other observations

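An unnamed cluster of 297 nuclei, which did not pass the naming rule, held HS3ST4 at 1323, 2244 and 589 CPM in OVT73 replicates 1 to 3 and 10.8, 894, 2567 and 709 CPM in control replicates 1 to 4. The lowest value came from control replicate 1, which had 15 nuclei in it. The mean of HS3ST4 in this cluster, 1191 ± 922 CPM, was above the D2 MSN mean of 1065, with overlapping library ranges. HS6ST2 in that cluster was 327 ± 96.7 CPM and HS3ST2 45.2 ± 33.9 CPM. With coarser clustering 260 of these nuclei joined the PV/Th interneurons and 37 the neuroblasts.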
